A study of Rattus norvegicus with 10 samples.

Results

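Otp, Sim1, Sim2, Pou3f2, Arnt2 and Foxb2 are genes of transcription factors known from the development of the magnocellular neurons of the hypothalamus or, for Foxb2, from the developing diencephalon. They were followed here in RNA sequencing of the rat supraoptic nucleus. All rows of the deposited table that carried one of these 6 names were taken, which gave 7 rows of 32623 genes, because Foxb2 stood beside 2 identifiers. The names were chosen with their difference between the groups already known, so that difference is described below and no test of it is read as support.

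The supraoptic nucleus holds magnocellular neurons, which make vasopressin (Avp) or oxytocin (Oxt) and send their axons to the posterior pituitary. SIM1, a factor with a basic helix-loop-helix and a PAS domain (bHLH-PAS), binds DNA as a dimer with ARNT2, and both are needed for these neurons to form. OTP, a homeodomain factor, is needed in the same lineage, and the POU factor POU3F2 (Brn-2) acts after SIM1 and ARNT2 in the final differentiation of neurons that make vasopressin, oxytocin or corticotropin-releasing hormone. SIM2 is the close relative of SIM1 and takes part in the formation of neurons that make thyrotropin-releasing hormone, and FOXB2 is a forkhead factor.

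The samples came from male Sprague-Dawley rats of 250 to 300 g, whose age is not given in the sources used here. Each rat had received an adeno-associated virus encoding a short hairpin RNA against Opn3, the gene of the opsin family member opsin 3, at one supraoptic nucleus, and at the other a virus whose hairpin has no target. After 2 weeks each nucleus was taken as a 1 mm punch from 100 µm sections and its RNA was prepared on its own. There were 5 samples in each group, called shOpn3 and shControl here and numbered 1 to 5 in the labels. All animals were thus injected, and both groups carried a virus and a hairpin. The labels do not say which side received which virus or that equal numbers mark the same rat, and the promoter of the hairpin is not given in the sources used here.

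Values are normalized counts, that is, reads per gene after division by the size factor of the sample, as deposited by the authors. The samples held 33158341 to 39958578 reads in genes, with a median of 35335182, and mitochondrial transcripts took 7.58% to 11.5% of them. The tissue markers Avp and Oxt were present in every sample, at 4619 or more and 3810 or more normalized counts. The targeted gene Opn3 had 719, 694, 841, 1007 and 261 normalized counts in shControl replicates 1 to 5, and 289.7, 193, 159, 154 and 145 in shOpn3 replicates 1 to 5. Control replicate 5 was the lowest of its group and lay below shOpn3 replicate 1, so the groups overlapped.

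The upstream sequences of 4 genes are shown because the proteins described here bind DNA by short core motifs, and these 4 windows held matches. Each is the stretch of 250 bases before the RefSeq transcription start in assembly GRCr8, written 5′ to 3′ on the strand of the gene, with the matches in capitals. The window of Otp is chr2:27842642-27842891 (plus strand), that of Pou3f2 is chr5:40880540-40880789 (minus strand), that of Avp is chr3:138248523-138248772 (minus strand) and that of Oxt is chr3:138235504-138235753 (plus strand).
Otp: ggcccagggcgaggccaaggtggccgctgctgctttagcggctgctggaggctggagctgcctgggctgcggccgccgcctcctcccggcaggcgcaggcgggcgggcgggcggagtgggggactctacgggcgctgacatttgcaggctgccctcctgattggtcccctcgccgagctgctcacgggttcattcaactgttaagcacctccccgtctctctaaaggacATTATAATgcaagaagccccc
Pou3f2: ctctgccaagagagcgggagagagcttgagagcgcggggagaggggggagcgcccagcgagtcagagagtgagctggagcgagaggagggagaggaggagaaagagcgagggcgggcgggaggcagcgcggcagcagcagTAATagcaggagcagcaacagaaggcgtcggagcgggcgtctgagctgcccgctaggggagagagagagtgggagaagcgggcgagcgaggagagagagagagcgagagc
Avp: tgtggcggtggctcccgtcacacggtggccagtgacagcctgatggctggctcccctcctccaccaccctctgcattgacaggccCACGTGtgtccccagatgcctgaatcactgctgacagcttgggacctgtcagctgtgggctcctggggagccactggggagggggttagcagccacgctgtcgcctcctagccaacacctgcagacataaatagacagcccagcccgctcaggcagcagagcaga
Oxt: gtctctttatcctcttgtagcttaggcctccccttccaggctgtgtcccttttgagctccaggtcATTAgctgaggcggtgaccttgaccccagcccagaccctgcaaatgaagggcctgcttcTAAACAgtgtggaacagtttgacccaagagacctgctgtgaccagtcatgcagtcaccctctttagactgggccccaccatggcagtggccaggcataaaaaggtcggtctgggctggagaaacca

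The motifs searched on both strands were ACGTG (the core bound by bHLH-PAS dimers), TAAT (the homeodomain core), ATGCAAAT (the octamer bound by POU factors) and TGTTTA (the forkhead core). Otp held ATTA and TAAT next to each other, from 21 to 14 bases before the start. Pou3f2 held TAAT from 110 to 107 bases before the start. Avp held CACGTG, which reads ACGTG on both strands, from 165 to 160 bases before the start. Oxt held ATTA from 185 to 182 and TAAACA, the reverse complement of TGTTTA, from 126 to 121 bases before the start. None of the 4 motifs was found in the windows of Sim1, Arnt2 and Foxb2. Of 33469 windows of the same length, 16.6% held ACGTG, 57% held TAAT, 1.56% held ATGCAAAT and 12.1% held TGTTTA. The matches describe letters in these windows only.

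Among the bHLH-PAS factors, Sim1 (ENSRNOG00000037600) had 1714, 2198, 2589, 2213 and 1417 normalized counts in shControl replicates 1 to 5, and 1111, 1073, 1305, 819 and 664 in shOpn3 replicates 1 to 5. Every shOpn3 sample was below every shControl sample, and replicate 3 was the highest and replicate 5 the lowest in both groups. The means were 2026 ± 461 and 994 ± 253 (SD, n = 5 each), a log2 difference of -1.03 (SE 0.196) that left 49.1% of the control mean. Between samples of the same number, shOpn3 held 64.8%, 48.8%, 50.4%, 37.0% and 46.8% of the control, highest in pair 1 and lowest in pair 4. In a bulk sample, fewer cells of a type and less RNA per cell cannot be told apart.

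Arnt2 (ENSRNOG00000013017), the dimer partner of SIM1, is also made in neurons outside this lineage. It had 11612, 11308, 11408, 11173 and 10690.0 normalized counts in shControl replicates 1 to 5, and 10768, 10148, 8948, 8654 and 9093 in shOpn3. The groups met at their edges, since shOpn3 replicate 1 lay just above shControl replicate 5, and the other shOpn3 samples lay below all shControl samples. The means were 11238 ± 346 and 9522 ± 896 (SD, n = 5 each), a log2 difference of -0.24 (SE 0.0743) that left 84.7% of the control mean. The shOpn3 samples held 92.7%, 89.7%, 78.4%, 77.5% and 85.1% of the control of the same number. Of the tested rows of the 6 names, Arnt2 had the smallest difference between the groups.

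Sim2 (ENSRNOG00000054203) was close to the limit of detection. It had 15, 11, 16, 13 and 5 reads in shControl replicates 1 to 5, and 0, 1, 0, 7 and 0 in shOpn3. A count of 0 allows up to 3 reads, so 4 of the 5 shOpn3 samples were at or under that floor. The shOpn3 sample with reads above it was replicate 4, which lay above shControl replicate 5. The normalized means were 12.1 ± 4.34 and 1.56 ± 2.94 (SD, n = 5 each). With a mean of 6.81 over the 10 samples, Sim2 fell under the filter of 10 and was not tested. In the authors' deposited table its log2 fold change was -2.94, with a standard error of 0.824. Trh, the peptide transcript of neurons that SIM2 takes part in forming, also had its highest shOpn3 value in replicate 4, at 2582 normalized counts against 1548 in the next. This rests on 1 library with 7 reads of Sim2. In shControl the 2 genes did not match, since Trh was highest in replicate 4 (5231 normalized counts) and Sim2 in replicate 3.

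The homeodomain gene Otp (ENSRNOG00000010560) had 188, 115, 88.8, 113 and 109.7 normalized counts in shControl replicates 1 to 5, and 91.1, 30.8, 18.7, 23.2 and 24.7 in shOpn3. Replicate 1 stood above the others of its group on both sides, and shOpn3 replicate 1 lay above shControl replicate 3, which made the groups overlap. The means were 123 ± 37.7 and 37.7 ± 30.2 (SD, n = 5 each), a log2 difference of -1.89 (SE 0.369) that left 30.7% of the control mean. The shOpn3 samples held 48.6%, 26.8%, 21.1%, 20.5% and 22.5% of the control of the same number. Without both samples numbered 1, the means were 107 ± 12.1 and 24.3 ± 5.003 (SD, n = 4 each), 22.8% of the control was left, and the groups did not overlap.

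The POU gene Pou3f2 (ENSRNOG00000006908) had 726, 537, 650.0, 584 and 521 normalized counts in shControl replicates 1 to 5, and 335, 205, 180.4, 186 and 184 in shOpn3. The highest shOpn3 sample was well below the lowest shControl sample. Replicate 1 was again the highest of both groups, and the other 4 shOpn3 samples lay close together. The means were 604 ± 84.7 and 218 ± 65.9 (SD, n = 5 each), a log2 difference of -1.50 (SE 0.171) that left 36.1% of the control mean. The shOpn3 samples held 46.1%, 38.2%, 27.7%, 31.9% and 35.3% of the control of the same number. Without the samples numbered 1 the means were 573 ± 57.8 and 189 ± 10.99 (SD, n = 4 each).

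The forkhead name Foxb2 had 2 identifiers in the deposited table but 1 gene in RefSeq GRCr8, so how reads were divided between them is uncertain and each was read apart. ENSRNOG00000032137 had 228, 75.3, 84.7, 105 and 136 normalized counts in shControl replicates 1 to 5, and 69.1, 17.0, 4.67, 7.73 and 11.3 in shOpn3. All shOpn3 samples were below all shControl samples, and shOpn3 replicate 1 was far above the rest of its group and just under the lowest control. The means were 126 ± 61.9 and 22.0 ± 26.7 (SD, n = 5 each), a log2 difference of -2.96 (SE 0.568), with 17.4% of the control mean left. The shOpn3 samples held 30.2%, 22.6%, 5.52%, 7.37% and 8.30% of the control of the same number. Without the samples numbered 1, 10.1% of the control mean was left (100.2 ± 26.9 and 10.2 ± 5.29, SD, n = 4 each).

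The second Foxb2 identifier, ENSRNOG00000058786, had 29.6, 14.2, 21.4, 13.1 and 17.9 normalized counts in shControl replicates 1 to 5, and 9.59, 3.19, 2.80, 2.90 and 3.08 in shOpn3. In shOpn3 replicates 2 to 5 each of these values was 3 reads, which is the floor, and replicate 1 was higher with 10 reads. The groups did not overlap, and the means were 19.3 ± 6.63 and 4.31 ± 2.96 (SD, n = 5 each; log2 difference -2.005, SE 0.351). It passed the filter on low values through its control level alone. This identifier took 11.1% to 20.2% of the reads of both in shControl and 12.2% to 37.5% in shOpn3, where both together had only 8 to 82 reads.

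**Figure D1:**
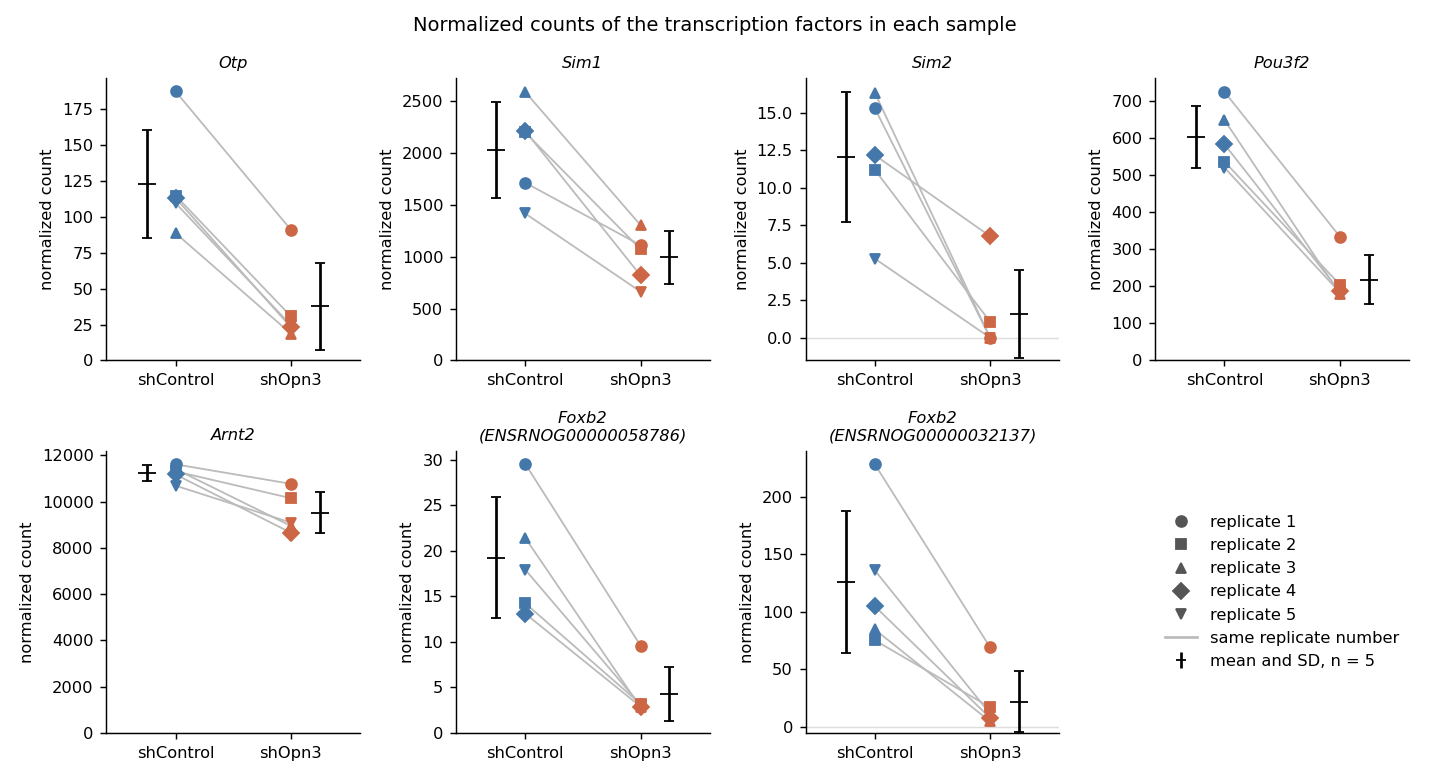
Normalized counts (vertical axes) of each of the 7 rows in the 5 shControl (blue) and 5 shOpn3 (orange) samples, with the shape giving the replicate number, grey lines joining equal numbers, and bars for mean and SD. Every line slopes down, and replicate 1 is the highest point of both groups for Otp, Pou3f2, Arnt2 and both Foxb2 rows.

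Across the 7 rows, shOpn3 was lower than the control of the same number in 5 of 5 pairs for every row. Among the 15597 genes tested, 20.7% were lower in all 5 pairs. No overlap between the groups was seen for 4 of the 6 rows tested (Sim1, Pou3f2 and both Foxb2 identifiers). Of all genes tested, 7.23% had shOpn3 below shControl throughout. Sim2, which was not tested, overlapped. The 2 Foxb2 identifiers stand for 1 gene in RefSeq, so they do not count as separate genes. The 6 rows tested all had a limma adjusted p under 0.05 (Benjamini-Hochberg over all genes) and were lower, against 8.48% of all genes tested. With the replicate number as a block they were lower as well, against 15.2% of all genes. Since the names were chosen on this difference, the calls are no test of it, and nothing is read from these counts. The 6 rows include Foxb2 ENSRNOG00000058786, which passed the filter through its control level alone. The median log2 difference of the 6 rows, which counts Foxb2 by both identifiers, was -1.69, and that of all genes tested was -0.02. With Foxb2 entered once, by either identifier, the middle gene was Pou3f2, at -1.50.

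The rows differed in the size of the difference, and the pairs show the order among them as a description. Within a pair, the log2 difference of Otp minus that of Sim1 was -0.85 ± 0.29 (SD, n = 5 pairs), so Otp was lowered further than Sim1 in 5 of 5 pairs. Pou3f2 lay between them. Sim1 minus Pou3f2 was 0.46 ± 0.24 and positive in 5 of 5 pairs, while Otp minus Pou3f2 was -0.39 ± 0.28 and negative in 4 of 5. Pou3f2 minus Arnt2 was -1.25 ± 0.17 and Sim1 minus Arnt2 was -0.79 ± 0.22, each negative in 5 of 5 pairs. The Foxb2 identifiers are not placed in this order, because the log2 difference of ENSRNOG00000058786 is limited by the floor of 3 reads and by the pseudocount. As shares of the control of the same number, this identifier kept 32.5%, 22.4%, 13.1%, 22.1% and 17.2%.

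Set against the peptide genes Avp and Oxt, Sim1 and Pou3f2 kept a larger share of their control level. Whether their reads came from the same cells as those of Avp and Oxt was not tested. Avp had a log2 difference of -2.35 (SE 0.426) and Oxt of -2.21 (SE 0.328). Within pairs, Sim1 minus Avp was 1.32 ± 0.65 and Sim1 minus Oxt was 1.17 ± 0.45 (SD, n = 5 pairs), both positive in 5 of 5. Pou3f2 minus Avp was 0.86 ± 0.48 and positive in 5 of 5 pairs, and Pou3f2 minus Oxt was 0.71 ± 0.52 and positive in 4 of 5. Otp did not stand apart from Avp beyond its spread, at 0.46 ± 0.65 and positive in 3 of 5 pairs.

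**Figure D2:**
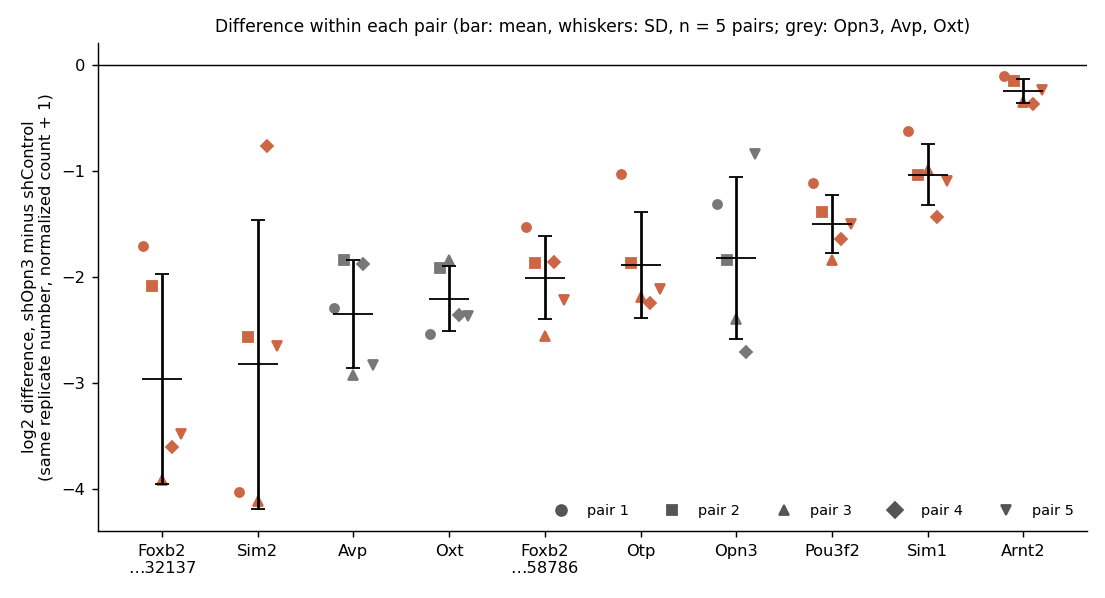
Log2 difference between shOpn3 and shControl samples of the same number (vertical axis) for each row, with Opn3, Avp and Oxt in grey, and the mean and SD of 5 pairs as bars. Arnt2 lies nearest to 0, Sim1 and Pou3f2 follow, and Sim2 and the Foxb2 identifier ENSRNOG00000032137 have the widest spread.

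Samples of the same group also differed from each other, and in 2 patterns. Otp, Pou3f2, Arnt2 and both Foxb2 identifiers were highest in replicate 1 of both groups. Otp lay 0.65 above its group mean on the log2 scale in shControl replicate 1 and 1.51 above it in shOpn3 replicate 1, and the Foxb2 identifier ENSRNOG00000032137 lay 0.97 and 2.22 above. Avp and Oxt also had their highest shControl and shOpn3 values in replicate 1, with 102261 and 20888 normalized counts for Avp and 56716 and 9739 for Oxt. Sim1 had a different order. It was 0.39 and 0.43 above the group mean in replicate 3, and -0.48 and -0.54 from it in replicate 5.

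**Figure D3:**
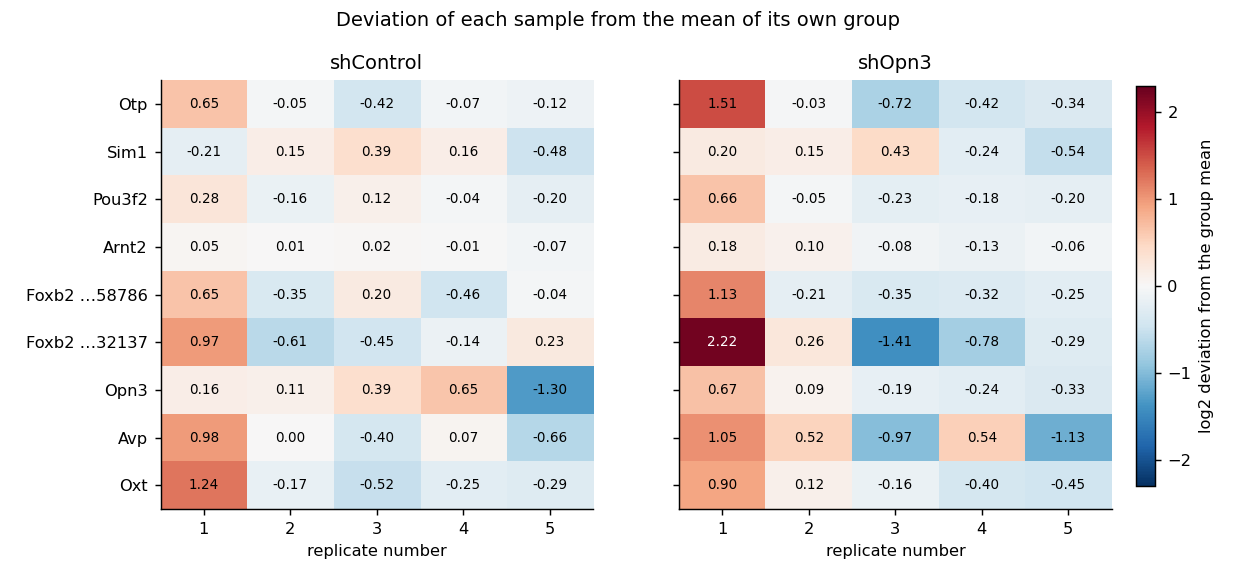
Deviation of each sample from the mean of its own group on the log2 scale, with samples in columns, genes in rows and red for above the mean. The columns of replicate 1 are red for the Otp, Pou3f2, Foxb2, Avp and Oxt rows, while Sim1 is highest in replicate 3.

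The genes with the most similar profile were ranked by the root mean square distance of log2 values over the 10 samples, among 11803 genes with a symbol and a mean of at least 100. For Otp these were Prph (peripherin, an intermediate filament protein) at a distance of 0.23, Kcnmb4 (an accessory subunit of calcium-activated potassium channels) at 0.24 and Tmem114 at 0.33. The distance of Otp from a flat profile was 1.12. With each group centred on its own mean, the same 3 genes came first for Otp, at 0.23, 0.24 and 0.26. The distance of Otp from a flat profile was then 0.61. Their likeness to Otp thus did not rest on the difference between the groups alone. Within the groups, Otp deviated most in replicate 1 (0.65 in shControl and 1.51 in shOpn3), and how far the likeness rests on these samples was not tested.

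For Sim1, the nearest genes over the 10 samples were Cd55, a regulator of complement (0.19), Oprk1, the kappa opioid receptor (0.20), and Pla2r1 (0.21). After centring within groups they were Pla2r1 (0.14), Chrna7, a nicotinic acetylcholine receptor subunit (0.14), and Pcdhga6 (0.16). None of these stood among the nearest genes of Otp, Pou3f2 or Foxb2. For Pou3f2 they were Elapor1, Hunk and Gpx3 over the 10 samples (0.17, 0.18 and 0.18) and Dyrk3, Pcgf3 and Rasd1 within groups (0.10, 0.11 and 0.12). Arnt2, whose own profile spanned little, had Cog7, Sdha and Fto at 0.04 each, and Qrich1, Dctn6 and Mgat3 within groups at 0.03 each.

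The Foxb2 identifiers shared neighbours with Otp. The ranking over the 10 samples includes the difference between the groups on which the names were chosen. ENSRNOG00000058786 had 3 reads, the floor, in shOpn3 replicates 2 to 5, so its profile in that group rests on replicate 1. ENSRNOG00000058786 had Kcnmb4 (0.28), Prph (0.30) and Elapor1 (0.36), and within groups Kcnmb4 (0.26), Hrh3 (0.27) and Slc7a4 (0.27). ENSRNOG00000032137 had Tmem114 (0.59), Cfap44 (0.66) and Prph (0.71), and within groups Prph (0.46), Tmem114 (0.49) and Nos1 (0.54), at distances larger than those of the other rows. Its distance from a flat profile was also the largest, at 1.765 over the 10 samples and 0.963 within groups. That distance was 0.61 and 0.33 for Sim1, 0.80 and 0.27 for Pou3f2, and 0.15 and 0.09 for Arnt2. For ENSRNOG00000058786 it was 1.12 and 0.49. The distances to neighbours are therefore not compared between rows. These rankings describe 10 samples from 1 dissection procedure and say nothing of shared function.

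Close relatives of the named factors were read from lists of their families, tested with limma over all 15597 genes. Of these genes 18.8% were called at an adjusted p under 0.05, 10.4% higher and 8.48% lower. Of 11 bHLH-PAS relatives tested 3 rose, and the list's median log2 difference was 0.21. At an unadjusted limma p under 0.05, 4 were higher and 0 lower, and edgeR and DESeq2 also called 3 higher and 0 lower. Npas4, an activity-induced neuronal factor, had 28.0 ± 10.6 normalized counts in shControl and rose to 76.3 ± 30.1 in shOpn3 (SD, n = 5 each; log2 difference 1.39, SE 0.309, limma adjusted p = 0.00810). Ahr, the dioxin receptor, rose by 0.51 (SE 0.117, limma adjusted p = 0.00918) and the clock-related Npas2 by 0.28 (SE 0.0877, limma adjusted p = 0.0461). The call of Npas2 was lost when any library but shControl replicates 1 and 5 and shOpn3 replicate 1 was left out, with limma adjusted p up to 0.125. That of Ahr was lost without both samples numbered 3 (limma adjusted p = 0.0585).

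Arnt, the ubiquitous relative of Arnt2, had 1149 ± 60.7 and 1148 ± 68.6 normalized counts (SD, n = 5 each; log2 difference -0.00, SE 0.0722, limma adjusted p = 0.992). Its difference had the other sign when samples were scaled by library total (0.07) or by quantiles (0.02). Npas1 had a log2 difference of 0.72 (SE 0.374, limma adjusted p = 0.209), and without shControl replicate 1, which held 104 normalized counts against 38.7 in the next control, it was called higher (1.06, limma adjusted p = 0.0234).

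Among 7 POU relatives tested, 1 rose and 1 fell, with a median of -0.14. Pou3f4 (Brn-4), which is made in the developing supraoptic nucleus, fell by 0.81 in log2 units, with an SE of 0.190 and a limma adjusted p of 0.0110. It had 104 to 174 normalized counts in shControl and 61.8 to 93.1 in shOpn3, and the groups did not overlap. Pou2f2 (Oct-2), known best from B cells, rose by 0.66 (SE 0.187, limma adjusted p = 0.0278), and this call was lost without shControl replicate 2 or 5 or shOpn3 replicate 3, 4 or 5 (limma adjusted p up to 0.0778). Pou3f3 had a log2 difference of -0.14 (SE 0.129, limma adjusted p = 0.513) and Pou3f1 one of 0.78 (SE 0.267, limma adjusted p = 0.0607). Pou3f1 was called higher by edgeR (0.86, adjusted p = 0.0456), and by limma without shOpn3 replicate 1 (0.94, adjusted p = 0.0239) or shOpn3 replicate 4 (0.92, adjusted p = 0.0391).

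Of 12 forkhead relatives tested 1 rose and 1 fell, with a median of 0.06, and edgeR called neither. Foxk2 rose by 0.19 (SE 0.0614, limma adjusted p = 0.0497; edgeR adjusted p = 0.0618), and Foxp4 fell by 0.48 (SE 0.154, limma adjusted p = 0.0477; edgeR adjusted p = 0.0530). The call of Foxk2 was lost when any library but shOpn3 replicate 1 was left out (limma adjusted p up to 0.139), and that of Foxp4 when any but shOpn3 replicate 1 and shControl replicate 3 was left out (up to 0.125). Foxb1, the nearest relative of Foxb2, had a log2 difference of -0.69 (SE 0.233, limma adjusted p = 0.0597). It was called lower by DESeq2 (-0.64, adjusted p = 0.0442), and by limma without shOpn3 replicate 1 (-0.82, limma adjusted p = 0.0275) or without shOpn3 replicate 2 (-0.83, limma adjusted p = 0.0291).

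Of 6 paired-type homeobox relatives of Otp that were tested 1 rose, with a median of 0.23, and the other 12 lay under the filter. At an unadjusted limma p under 0.05, 1 was higher and 0 lower, and edgeR and DESeq2 called 1 higher and 0 lower. Drgx rose from 7.29 ± 3.002 to 19.01 ± 8.002 (log2 difference 1.22, SE 0.383, limma adjusted p = 0.0430). It had 4, 5, 11, 7 and 9 reads in shControl replicates 1 to 5, and passed the filter on low values through its shOpn3 level alone. The call of Drgx was lost when any library but shControl replicates 3 and 5 and shOpn3 replicate 1 was left out (limma adjusted p up to 0.102).

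**Figure D4:**
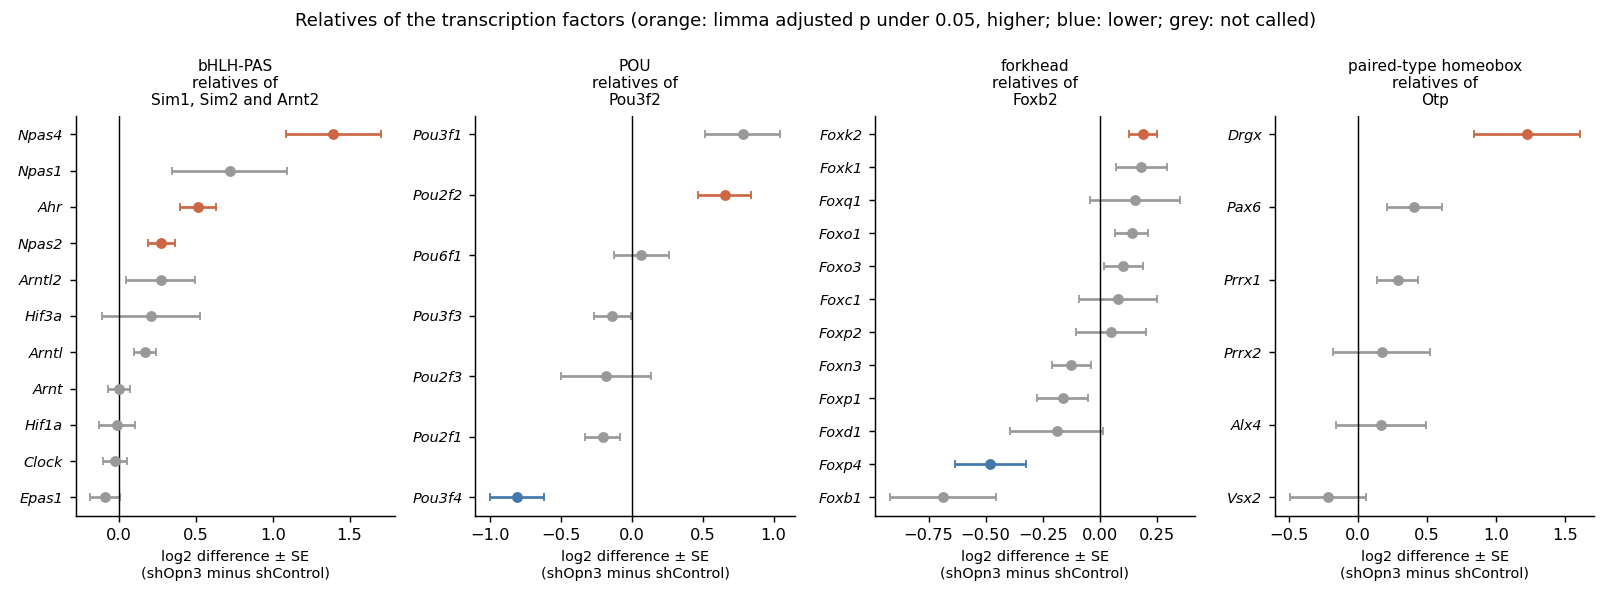
Log2 difference between shOpn3 and shControl with its SE (horizontal axes) for the tested relatives of each family, coloured where limma called them. Most relatives lie near 0, with Pou3f4 and Foxp4 called lower and Npas4, Ahr, Npas2, Pou2f2, Foxk2 and Drgx called higher.

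Of 5 peptide genes of neurons that form under OTP, SIM1 and ARNT2, 3 fell (Avp, Oxt and Trh) and 1 rose, with a median log2 difference of -1.68. Trh, the precursor of thyrotropin-releasing hormone, fell by 1.68 (SE 0.236, limma adjusted p = 0.000714). Crh, the gene of corticotropin-releasing hormone, rose from 77.9 to 154 normalized counts on average (log2 difference 0.91, SE 0.279, limma adjusted p = 0.0383). The call of Crh was lost when any library but shControl replicate 4 and shOpn3 replicates 1 and 5 was left out (limma adjusted p up to 0.101). Sst, the gene of somatostatin, had a log2 difference of 0.80 (SE 0.357, limma adjusted p = 0.146), and it was called higher with the replicate block (limma adjusted p = 0.00645).

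Of 20 factors that mark other parts of the hypothalamus 5 rose and 2 fell, with a median of 0.21. Fezf2, which acts before Otp in the fish hypothalamus, fell to 96.1 ± 31.2 normalized counts, against 289.6 ± 53.2 in shControl (SD, n = 5 each; log2 difference -1.61, SE 0.203, limma adjusted p = 0.000413). The LIM homeodomain gene Isl1 fell by 1.01 (SE 0.166, limma adjusted p = 0.00152). Lhx9, another gene of that class, rose from 44.2 ± 7.26 to 140.4 ± 16.9 (SD, n = 5 each; log2 difference 1.65, SE 0.154, limma adjusted p = 0.000141). The other rises were those of Nkx2-1 (0.87, SE 0.196), Meis2 (0.86, SE 0.198), Dlx5 (0.75, SE 0.208) and Nr2f2 (0.42, SE 0.0956), with limma adjusted p from 0.00874 to 0.0241. Of these, Dlx5 was not called without shOpn3 replicate 1 or 5 (limma adjusted p up to 0.0654). Without both samples numbered 3, Nkx2-1, Nr2f2 and Dlx5 were not called (limma adjusted p = 0.0614, 0.0658 and 0.0689), nor were Nr2f2 without those numbered 2 (0.0599) and Dlx5 without those numbered 2 or 5 (up to 0.112).

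Markers of tissue around the nucleus moved with the groups, and these values stand beside the differences of Otp, Sim1, Pou3f2 and Foxb2. Of 12 markers of cortex, amygdala and striatum 6 rose and 2 fell, with a median of 0.71 and summed levels of 2766 to 3515 normalized counts in shControl and 3538 to 5435 in shOpn3. Slc17a7, the vesicular glutamate transporter of cortical neurons, rose by 2.88 (SE 0.528, limma adjusted p = 0.00285), Neurod2 by 2.22 (SE 0.543, limma adjusted p = 0.0134) and Neurod6 by 1.97 (SE 0.458, limma adjusted p = 0.0103). Both Neurod genes were not called without the samples numbered 3 (limma adjusted p = 0.0807 and 0.0697). Neurod2 had 5, 0, 2, 7 and 6 reads in shControl replicates 1 to 5. It passed the filter on low values through its shOpn3 level alone, so its rise is measured against a level near the floor. Markers of the striatum went both ways. The dopamine receptor gene Drd1 rose by 0.97 (SE 0.131, limma adjusted p = 0.000603), Adora2a and Rgs9 fell, and Drd2 (-0.16) and Ppp1r1b (0.21) were not called. Adora2a was not called without shControl replicate 2 (limma adjusted p = 0.0502) or both samples numbered 1, 2 or 5 (up to 0.0944). Of 12 general neuron markers 2 rose and 3 fell, against 10.4% and 8.48% of all genes tested, with a median of 0.20 and overlapping sums of 147604 to 206673 and 145206 to 245773. Rbfox3 (NeuN) rose by 0.62 (SE 0.140, limma adjusted p = 0.00902) and Syn1 by 0.41 (SE 0.126, limma adjusted p = 0.0412). Uchl1 fell by 0.49 (SE 0.133, limma adjusted p = 0.0229), Elavl3 by 0.50 (SE 0.129, limma adjusted p = 0.0179) and Elavl4 by 0.57 (SE 0.170, limma adjusted p = 0.0338). Rbfox3 was not called without the samples numbered 2 (limma adjusted p = 0.0566). Syn1 was not called when any library but shControl replicate 3 and shOpn3 replicate 4 was left out (limma adjusted p up to 0.0929), and Uchl1 not without shControl replicate 1 or shOpn3 replicate 3 or 4 (up to 0.0667). The call of Elavl3 was lost without shOpn3 replicate 3 (limma adjusted p = 0.0530), and that of Elavl4 without shControl replicate 2, 3 or 4 or shOpn3 replicate 3, 4 or 5 (up to 0.0899).

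**Figure D5:**
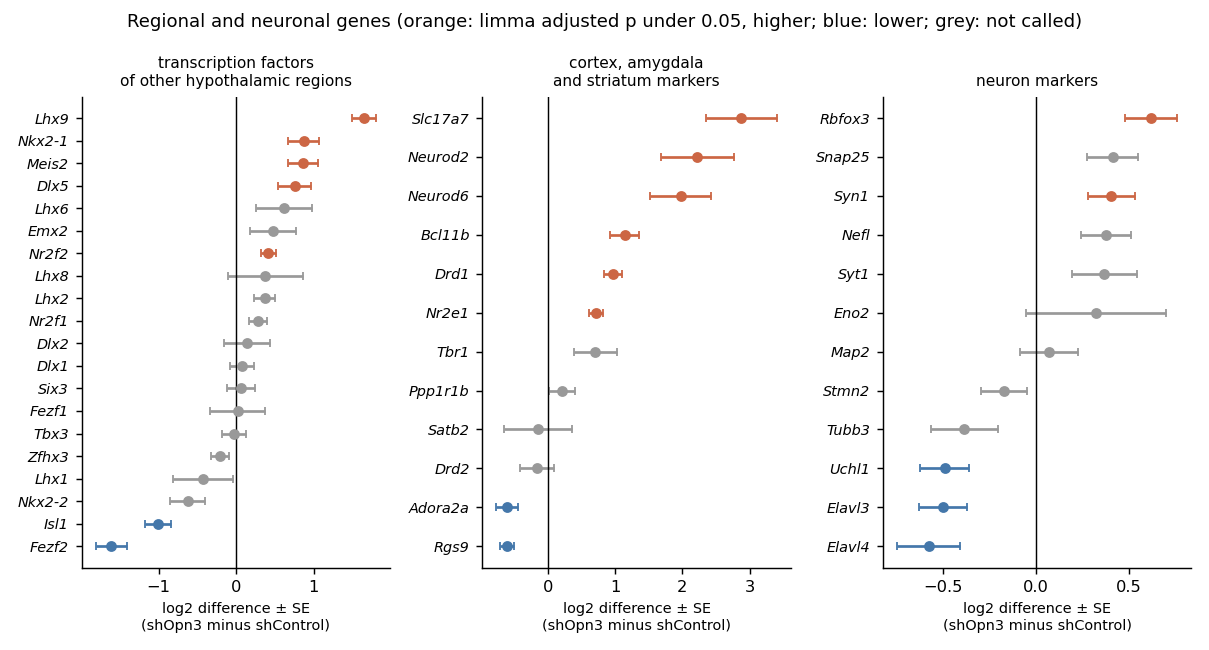
Log2 difference between shOpn3 and shControl with its SE (horizontal axes) for factors of other hypothalamic regions, markers of cortex, amygdala and striatum, and neuron markers. Slc17a7, Neurod2, Neurod6 and Lhx9 lie farthest to the right, and Fezf2 and Isl1 farthest to the left.

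Glial markers moved as well. Of 12 microglial markers 11 rose (median 1.08), with summed levels of 16267 to 20068 normalized counts in shControl and 26740 to 51983 in shOpn3. At an unadjusted limma p under 0.05, 12 of them were higher. Cd68, a lysosomal protein of phagocytes, rose by 2.82, Itgam by 1.48 and C1qb by 1.46. Of 12 oligodendrocyte markers 12 fell (median -1.19), with sums of 750261 to 1278630 and 256770 to 484356. Among them the myelin genes Mbp, Mobp and Mag fell by 1.496, 1.44 and 1.41. The calls of Sox10 and Olig2 were lost without shOpn3 replicate 3, and that of Olig2 also without shOpn3 replicate 2 (limma adjusted p up to 0.0568). Without both samples numbered 1, neither was called (limma adjusted p = 0.0567 and 0.0843). Of 12 astrocyte markers 4 rose and 1 fell (median 0.14), and the sums overlapped, at 407442 to 531119 and 456300 to 602576. Gfap, Vim, Aqp4 and Gja1 rose, by 1.104, 0.56, 0.45 and 0.42, and Glul fell by 0.38. The call of Aqp4 was lost without shOpn3 replicate 3 (limma adjusted p = 0.0514), and those of Aqp4 and Gfap without both samples numbered 3 or 4 (up to 0.0938). None of 7 markers of endothelium and blood was called by limma, edgeR or DESeq2 (median -0.16), 0 had an unadjusted limma p under 0.05, and their sums overlapped at 47621 to 93426 and 54493 to 82573. In the fit with the replicate block, Slco1a4 was higher (0.17, limma adjusted p = 0.0442). Of the 28 alternatives, this was the 1 with a marker of that list called higher, and 2 had 1 called lower. No marker of these cell types was at 0 in a group. The part of these cell types in the differences of the transcription factors was not tested.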

How the data were processed

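RNA sequencing of 10 supraoptic nucleus samples, 5 in each of 2 groups, was deposited as a table of 32623 rat genes. Its signal per gene and sample was, in the deposited form, reads over the size factor of the sample, and whole reads were recovered for 100% of the positive values of every sample (within 0.1 read). The same table held the authors' own comparison, per the file headers, with a log2 fold change and standard error, a Wald score and p-values before and after adjustment. FastQC, STAR, featureCounts and DESeq2 are named without versions in the submitters' processing notes. The genome build, the annotation and any use of strand in counting are not given in the sources used here, so genes that overlap another gene are uncertain.

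Values were taken as log2(normalized count + 1), a scale on which differences of low genes come out too small. Genes with a mean of at least 10 were kept (15597), and the groups were compared with limma 3.58.1 (trend, two-sided, group alone, R 4.3.3), with Benjamini-Hochberg adjustment over all genes tested and a threshold of 0.05. edgeR 4.0.16 and DESeq2 1.42.0 on the recovered reads, other scalings, filters and pseudocounts, sample weights, a replicate block and left-out samples were alternatives. The procedure was tested on simulated data. These had the same spread for all genes and no deviations shared by genes or by equal numbers. They do not show how the calls fare with the shared deviations seen here. The floor of 3 reads for a count of 0 covers counting error only. The p-values measure the spread between these samples.

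The transcription factors, the gene lists and the rule for named genes were chosen with earlier results of these data known. Named genes were Opn3, Avp, Oxt, every row of the 6 names and their closest relatives Arnt, Npas1, Pou3f1, Pou3f3, Pou3f4 and Foxb1. To these came up to 3 called genes with the largest differences from each list and the 3 nearest profiles of each row with a mean of at least 10. Other list members named beside a count were chosen after their values were seen. Npas3, Foxf2, Foxj1, Pecam1 and Ly6c1 were not analysed here, and some relatives that the lists had held are not reported here.

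Whether equal replicate numbers pair the samples was checked. The labels place a nucleus of each rat in both groups, but none ties equal numbers to a rat. Deviations from the group means correlated across genes in all 5 same-numbered pairs (r from 0.121 to 0.439), against a median of -0.205 for other pairs. That median is no independent baseline. Centring each gene within its group pushes the other pairs below 0 where the same-numbered pairs lie above it. Some differently numbered samples correlated more than the weakest of these (up to 0.36). By the rule that every pair exceed 0.1, the numbers were taken to pair the samples. The main fit did not use this pairing, so its standard errors and calls are those of an unpaired comparison. With the replicate block the SE of Otp was 0.199 against 0.369, and some genes not called in the main fit were called. Upstream windows and 1 start site per gene came from RefSeq GRCr8, where 7 of 8 genes looked up had a window.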

Additional observations from a re-analysis of the deposited data

Results flagged for a closer look

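Of 132 group values examined (each named gene in each group), 14 had a highest or lowest sample whose gap to the nearest other sample took up more than 0.71 of the group's range. Chance flags about 1 in 20 groups, or 6.6 here if the values were independent. They were not, because several of the genes were named for profiles like those of the transcription factors, so neither that number nor the tally by replicate is a test. Of the 14, 10 lay in replicate 1, 1 in replicate 4 and 3 in replicate 5.

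Among the transcription factors, Otp stood out in shControl replicate 1 (188 normalized counts, next 115) and in shOpn3 replicate 1 (91.1, next 30.8). The same shOpn3 sample stood out for Pou3f2 (335, next 205) and for Foxb2 under ENSRNOG00000032137 (69.1, next 17.0) and under ENSRNOG00000058786 (9.59, next 3.19). Sim2 stood out in shOpn3 replicate 4 (6.76, next 1.06). In shControl replicate 1, Oxt had 56716 (next 21354), Npas1 had 104 (next 38.7) and Tmem114 had 271 (next 179). In shOpn3 replicate 1, Cfap44 had 92.1 (next 40.4) and Gpx3 had 5522 (next 3018). In shControl replicate 5, Aqp4 was high (95299, next 83143), while Sdha (10835, next 11902) and Mgat3 (2242, next 2484) were low.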

How the results depend on the processing

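Under up to 28 alternatives the log2 differences of the transcription factors kept their sign. They ranged from -2.27 to -1.70 for Otp, -1.26 to -0.90 for Sim1, -1.66 to -1.41 for Pou3f2, -0.29 to -0.14 for Arnt2 and -3.51 to -2.51 for Foxb2 ENSRNOG00000032137. Quantile scaling moved Arnt2 to -0.14. Foxb2 ENSRNOG00000058786 gave a value under 25 alternatives, from -2.53 to -1.39, the last with a pseudocount of 5. It was left out by the filter of 50 and without shControl replicate 1 or both samples numbered 1. Sim2 gave a value under 3. Leaving out single samples or both of a number gave ranges of -2.14 to -1.60 for Opn3, -2.61 to -2.07 for Avp and -2.43 to -1.90 for Oxt.

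The number of genes called by limma was 2940, 1322 lower and 1618 higher. Voom with quality weights called 5085, the replicate block 4726, and edgeR with the replicate block, added after seeing the data, 4777. Leaving out samples gave 1603 (without both samples numbered 3) to 3057 genes, with 1878 without both numbered 2. Scaling by library total called 835 lower and 2139 higher, and the cause was not tested. Among 56 related genes, 1564 values under the alternatives held 0 reversals of a called gene, 133 lost calls in 17 genes and 47 gained calls. With the replicate block, Sst, Nkx2-2 (-0.63, limma adjusted p = 0.0152), Tubb3 (-0.38, 0.00850), Tmem119 (0.69, 0.0386), Slco1a4 (0.17, 0.0442), Chrna7, Dyrk3, Fto, Hrh3 and Nos1 were also called, and the transcription factors kept their differences with smaller errors, such as -1.89 (SE 0.199) for Otp. Reads limit Sim2 and Foxb2 ENSRNOG00000058786, which lay at the floor of 3 reads in most shOpn3 samples.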
